A study of Mus musculus with 99 samples.

Results

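T-type calcium channels and HCN channels are described here through 6 genes, Cacna1g, Cacna1h, Cacna1i, Hcn2, Hcn3 and Hcn4, out of 55335 gene identifiers counted. The rule that picks them is family name, proposed with earlier results of these data known, and each was found by its Ensembl identifier through GENCODE symbols. All 6 had enough counts to be tested in every region. The libraries came from wildtype juvenile offspring of C57BL/6 dams that drank fentanyl at 10 µg/ml, or plain water, from embryonic day 0 until weaning. Bulk RNA was taken from the ventral tegmental area (VTA, which holds the midbrain dopamine neurons), the ventrobasal thalamus (VBT, the relay for touch and pain), the nucleus accumbens (NAc), and 2 cortical areas, prelimbic (PrL) and primary somatosensory (S1), in females and males. Of the 20 groups of region, sex and treatment, 19 had 5 libraries and male S1 with water had 4. The labels name no dam or litter for a library, so siblings may sit in 1 group, and p-values measure the spread between these libraries only.

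T-type channels open at voltages near rest and inactivate quickly, and HCN channels open when a neuron is hyperpolarized and carry a depolarizing current that is tuned by cyclic AMP. In thalamic relay neurons the currents together shape the switch between rhythmic burst firing and single-spike firing. HCN current is also recorded in midbrain dopamine neurons. Cacna1g, Cacna1h and Cacna1i encode the pore subunits CaV3.1, CaV3.2 and CaV3.3. Hcn2, Hcn3 and Hcn4 encode pore subunits of which the HCN4 channel opens slowly and responds strongly to cyclic AMP.

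One VTA library, from a male with water (number 3), detected 6333 genes, where every other library detected 24079 or more, and was left out unless stated. That library listed Cacna1h, Hcn3 and Hcn4 at 0 counts, and Cacna1g at 265 and Cacna1i at 345 CPM, a gene's count scaled to a common library total. It held 16515545 counts in all, and the other 98 libraries held between 23032078 and 52069639. The lowest count of a member in a water library that was used was 81, for Hcn4 in S1. Defining markers were present where the labels place them: Slc6a3, the dopamine transporter, averaged 388 CPM in VTA, Prkcd, a relay neuron gene, 1568 CPM in VBT, Slc17a7, a glutamate transporter of cortical neurons, 1164 CPM in S1 and 1552 CPM in PrL, and Ppp1r1b, a striatal projection neuron gene, 854 CPM in NAc. Within regions, 4 VTA libraries had a low midbrain dopamine score, 4 VBT libraries a low thalamic relay score, 3 PrL water libraries carried olfactory bulb markers, and cortex markers varied widely in NAc. A score is the mean of log2(CPM + 1) over a marker list.

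The members of 1 family share stretches of coding sequence, which bears on how reads can be assigned. The longest identical coding runs between pairs of T-type genes, and the longest between HCN genes, are shown here from GENCODE M21 transcripts on GRCm38, with no capitals since every base is identical in both genes.
Cacna1g and Cacna1i: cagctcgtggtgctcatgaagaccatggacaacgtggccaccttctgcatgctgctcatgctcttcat
Cacna1h and Cacna1i: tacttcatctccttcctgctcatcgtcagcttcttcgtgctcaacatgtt
Cacna1g and Cacna1h: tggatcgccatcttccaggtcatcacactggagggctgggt
Hcn2 and Hcn3: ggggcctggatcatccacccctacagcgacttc
These runs are 68, 50, 41 and 33 bases long, in coding sequences of 7143 bases for Cacna1g, 7077 for Cacna1h, 6597 for Cacna1i, 2589 for Hcn2 and 2337 for Hcn3. Between a T-type and an HCN gene no run passed 17 bases. Cacna1h shared 158 exon bases with Tpsg1 and Hcn3 shared 711 exon bases with Pklr, each on the other strand. The sources used here do not say whether counting used strand, so reads in those bases cannot be assigned to 1 gene.

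Cacna1g lies on GRCm38 chromosome 11 from 94408391 to 94474198, Cacna1h on chromosome 17 from 25374285 to 25433783, and Cacna1i on chromosome 15 from 80287238 to 80398279. Hcn2 lies on chromosome 10 from 79716634 to 79736108, Hcn3 on chromosome 3 from 89146074 to 89160196, and Hcn4 on chromosome 9 from 58823412 to 58863175. Their exons are rich in G and C, between 58.0% in Hcn4 and 65.2% in Hcn2, which matters below because the VTA libraries differ in how counts follow GC content.

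Each member had its own order of regions in the water libraries. In CPM, Cacna1g, Hcn2 and Hcn4 were highest in VBT, Hcn3 was highest in VTA, Cacna1i was highest in the cortical regions, and Cacna1h was highest in NAc, PrL and VTA. Differences between regions passed an adjusted p of 0.05 (edgeR's quasi-likelihood test, both sexes averaged) in 50 of 60 pairs of a member with 2 regions. The background is high, since of the 21468 genes tested 37.3% passed between S1 and PrL, 50.3% between PrL and NAc, 52.5% between VTA and VBT and 53.3% between S1 and NAc. Between VTA and NAc, PrL and S1 64.8%, 66.5% and 67.6% passed, and between VBT and NAc, S1 and PrL 67.8%, 68.0% and 68.4%. Cacna1g and Cacna1h passed in 7 pairs each, Cacna1i in 8, Hcn2 and Hcn3 in 9 each and Hcn4 in 10.

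**Figure D1:**
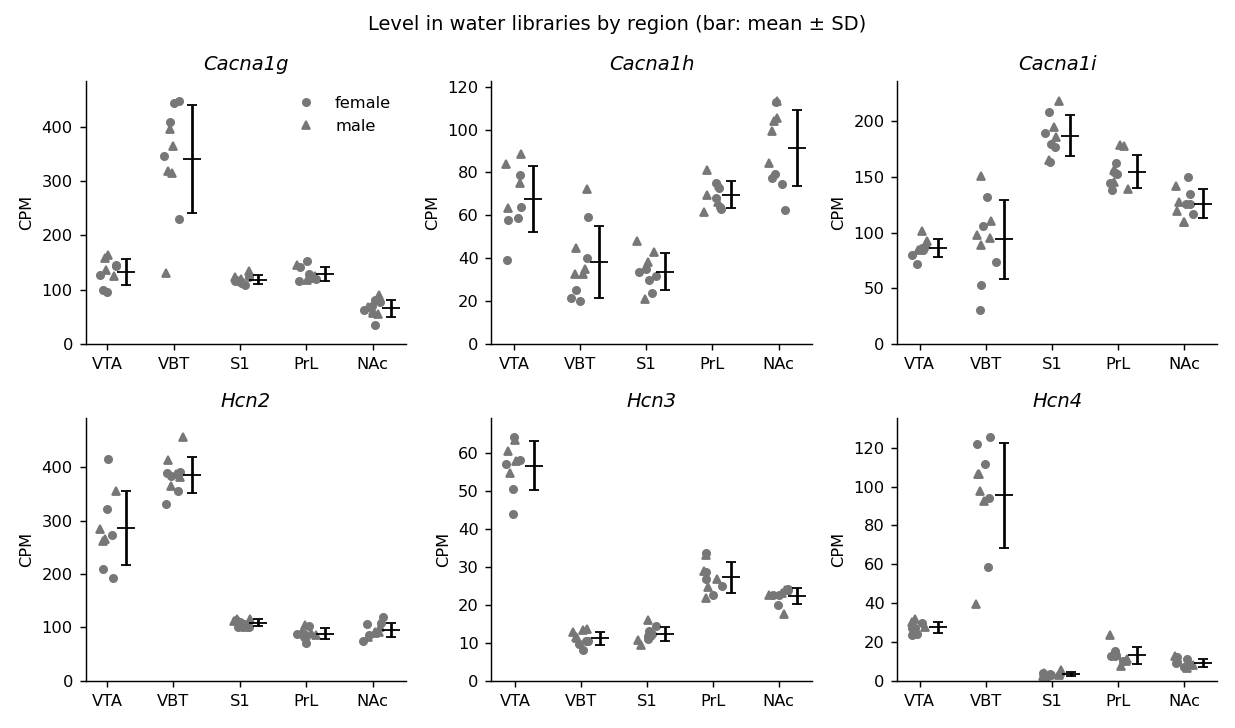
CPM of each member (vertical axes) in the water libraries of the 5 regions. Each point is a library (circles female, triangles male), the bar is the mean ± SD, and n is 9 in VTA and S1 and 10 in VBT, PrL and NAc. Hcn4 ranges from a mean of 3.50 CPM in S1 to 95.4 CPM in VBT.

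Cacna1g, the main T-type gene of relay neurons, averaged 340.1 ± 99.1 CPM in VBT (SD, n = 10), with a lowest value of 130.1, a median of 356 and a highest of 448. In VTA it averaged 133 ± 23.9 (n = 9), in PrL 129.8 ± 12.8 (n = 10), in S1 119 ± 7.61 (n = 9) and in NAc 66.0 ± 15.2 (n = 10). The VBT level was 1.49 higher than that of VTA on the log2 scale (95% interval 1.19 to 1.79, adjusted p 2.1e-11). VTA, PrL and S1 could not be ordered: VTA minus PrL was -0.05 (interval -0.35 to 0.24) and PrL minus S1 was 0.13 (interval -0.16 to 0.43). S1 lay 0.93 above NAc (adjusted p 8.4e-07).

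Cacna1h averaged 91.3 ± 17.8 CPM in NAc, 69.6 ± 6.24 in PrL, 67.7 ± 15.4 in VTA, 38.4 ± 16.8 in VBT and 33.8 ± 8.62 in S1 (SD, n = 9 or 10 as above). NAc and PrL, and PrL and VTA, did not pass the test (PrL minus NAc at -0.29, adjusted p 0.104, and VTA minus PrL at -0.13, adjusted p 0.476), but NAc and VTA did, with VTA minus NAc at -0.42 (adjusted p 0.0170). VTA exceeded VBT by 0.71 on the log2 scale (adjusted p 0.000175), and VBT and S1 did not pass, with VBT minus S1 at 0.21 (interval -0.11 to 0.53).

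Cacna1i averaged 187 ± 18.3 CPM in S1, 155 ± 14.5 in PrL, 126 ± 13.2 in NAc, 93.9 ± 35.4 in VBT and 86.3 ± 8.01 in VTA. It was the only member whose 2 highest means were both in cortex. S1 and PrL did not pass the test (0.27, interval 0.00 to 0.53, adjusted p 0.108), nor did VBT and VTA (0.23, interval -0.04 to 0.50), while PrL exceeded NAc by 0.39 (adjusted p 0.0106).

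Hcn2, the most abundant member per length in every region, averaged 385 ± 33.4 CPM in VBT and 287 ± 69.2 in VTA, against 109 ± 6.58 in S1, 95.2 ± 13.5 in NAc and 88.7 ± 9.64 in PrL. VBT exceeded VTA by 0.56 (adjusted p 8.6e-06), and VTA exceeded S1 by 1.32 (adjusted p 1.2e-14). NAc and PrL differed by 0.01 (interval -0.19 to 0.21).

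Hcn3 averaged 56.8 ± 6.38 CPM in VTA, 27.3 ± 3.99 in PrL, 22.5 ± 2.12 in NAc, 12.3 ± 1.94 in S1 and 11.3 ± 1.72 in VBT. The lowest VTA value, 44.0, was above the highest of any other region, 33.7 in PrL. VTA exceeded PrL by 0.97 (adjusted p 4.2e-15), and S1 and VBT did not pass the test at 0.09 (interval -0.07 to 0.24).

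Hcn4 had the widest range and was the 1 member whose 10 region pairs all passed. It averaged 95.4 ± 27.0 CPM in VBT, 27.6 ± 2.76 in VTA, 13.1 ± 4.23 in PrL, 9.40 ± 2.07 in NAc and 3.50 ± 0.917 in S1. The 2 cortical regions stood at opposite sides of NAc in this order, with PrL 0.56 above NAc (adjusted p 0.00487) and NAc 1.34 above S1 (adjusted p 8.7e-08).

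Per kilobase of exon, levels can be compared between genes. Of the summed T-type level per kilobase, Cacna1g made up 70.0% ± 15.6 in VBT (SD, n = 10) and 45.4% ± 2.60 in VTA, whereas Cacna1i made up 55.4% ± 4.30 in S1, 44.1% ± 3.44 in PrL and 44.7% ± 3.51 in NAc. Cacna1h reached 32.7% ± 5.70 in NAc and was 8.83% ± 5.21 in VBT. Of the summed level per kilobase of the 3 HCN genes, Hcn2 made up between 76.1% ± 3.18 in PrL and 90.6% ± 1.5 in S1. Hcn3 made up 18.0% ± 1.84 of it in PrL but 1.96% ± 0.350 in VBT, and Hcn4 made up 11.1% ± 2.81 in VBT but 1.52% ± 0.372 in S1.

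Without the water libraries of low dopamine or relay score or raised bulb score, 8 libraries were left in VTA, 8 in VBT and 7 in PrL. Cacna1g in VBT then averaged 380.1 ± 52.5 CPM (SD, n = 8), Hcn4 in VBT 107 ± 12.1, Cacna1h in VBT 31.5 ± 8.77 and Hcn4 in PrL 11.5 ± 2.09 (SD, n = 7). The mean of every member in these 3 regions was 0.820 to 1.12 times that over all libraries. The share of Cacna1g in the summed T-type level per kilobase of VBT was then 76.3% ± 8.10 (SD, n = 8). Again 50 of 60 pairs passed, but Hcn2 no longer did between S1 and PrL (0.25, adjusted p 0.0823), and Cacna1h did between PrL and NAc (-0.34, adjusted p 0.0284). The sign of Cacna1h between VBT and S1 and of Hcn2 between PrL and NAc, pairs that did not pass, turned to -0.07 and 0.01. No NAc water library was left out in this check, although cortex scores of the NAc water libraries ran from 3.83 to 6.06. Cacna1g in NAc water libraries ran from 36.2 CPM, in the library of lowest cortex score, to 89.9 CPM.

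The levels of Hcn2 and Hcn4 went together across the 48 water libraries (Pearson's r of log2(CPM + 1) of 0.83), while Cacna1i ran opposite to Hcn4 (r of -0.75). These correlations are descriptions and mostly reflect the regions, since within regions they were 0.17 and -0.40. Cacna1g and Hcn4 also moved together within regions (r of 0.67). Among VBT water libraries both were lowest in female water 2 and male water 3, which had the lowest relay scores. The part of tissue content in this correlation was not tested. The 250 bases before the RefSeq start are shown for Hcn2, Hcn4 and Cacna1i, the 3 members for which a RefSeq promoter was at hand. They run 5′ to 3′ on GRCm38.p6, plus strand, with the GC box motif GGGCGG or its complement CCGCCC in capitals. They lie at chr10:79716384-79716633, chr9:58822699-58822948 and chr15:80286988-80287237.
Hcn2: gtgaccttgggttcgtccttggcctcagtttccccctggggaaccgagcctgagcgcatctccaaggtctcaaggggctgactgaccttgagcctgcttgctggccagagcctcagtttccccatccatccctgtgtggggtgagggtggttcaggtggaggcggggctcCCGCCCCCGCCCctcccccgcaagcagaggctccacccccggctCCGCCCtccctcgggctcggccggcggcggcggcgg
Hcn4: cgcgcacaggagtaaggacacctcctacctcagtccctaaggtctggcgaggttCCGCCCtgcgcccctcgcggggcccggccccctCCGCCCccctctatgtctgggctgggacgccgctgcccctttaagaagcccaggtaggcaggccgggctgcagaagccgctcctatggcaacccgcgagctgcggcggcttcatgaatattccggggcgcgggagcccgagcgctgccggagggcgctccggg
Cacna1i: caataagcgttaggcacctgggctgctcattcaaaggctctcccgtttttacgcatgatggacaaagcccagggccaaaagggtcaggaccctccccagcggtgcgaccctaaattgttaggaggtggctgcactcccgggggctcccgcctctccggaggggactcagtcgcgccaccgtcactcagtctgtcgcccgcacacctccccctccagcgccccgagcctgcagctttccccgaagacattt
The window of Hcn2 held 3 GC boxes and that of Hcn4 held 2, both strands searched, and the window of Cacna1i held none. Among 32817 RefSeq promoter windows of this length 32.7% held at least 1. G and C made up 70.4%, 71.2% and 62.4% of the 3 windows, against a median of 52.4% over all. None held TATAAA, TGACGTCA or CACGTG, which 12.4%, 1.55% and 6.02% of all windows held. A match is a description of the letters and says nothing of a bound factor.

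For each member, the 3 protein-coding genes with the most similar profile over the 48 water libraries were taken from 13638 genes with a mean of at least 1 CPM. Nefh, a neurofilament gene of large-calibre axons, was nearest to Hcn2 (r of 0.99), averaging 494 CPM in VBT and 35.0 in PrL. Mturn was nearest to Cacna1g (0.97), Syt9, a synaptotagmin, to Hcn4 (0.98) and Prmt2, an arginine methyltransferase, to Hcn3 (0.97). Rapgef5 was nearest to Cacna1i (0.90) and Amz1 to Cacna1h (0.89). After these came Napepld and Ccdc136 for Cacna1g, Slc44a5 and Atp6v1c2 for Cacna1h, Tmem44 and Cabp1 for Cacna1i, Cdr2 and Map4 for Hcn2, Impact and Slc7a3 for Hcn3, and Shisal1 and Dbndd1 for Hcn4. Within regions r was between 0.50 (Map4) and 0.83 (Syt9) for the genes nearest to Cacna1g, Cacna1h, Cacna1i, Hcn2 and Hcn4, but 0.37 for Prmt2, 0.094 for Impact and 0.12 for Slc7a3 with Hcn3.

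In VBT, Cacna1g and Hcn4 were lower in the libraries with the lowest relay markers. The 4 libraries with the lowest relay score, from 6.80 to 7.49, were female water 2, male water 3 and male fentanyl 4 and 5, and the other 16 scored from 7.92 to 8.45. In those 4 libraries Cacna1g ranged from 130.1 to 270.0 CPM and Hcn4 from 39.5 to 58.7, below the ranges of the other 16, which were 314 to 474 and 91.5 to 127. Cacna1h ranged from 38.8 to 72.5 CPM and Cacna1i from 104 to 151 in the 4, against 19.97 to 44.8 and 30.4 to 118 in the rest, with overlap. Hcn2 ranged from 331 to 365 CPM in the 4 and from 356 to 456 in the rest, and Hcn3 from 10.6 to 23.4 and from 8.12 to 13.6, both with overlap. In a bulk sample, fewer relay cells and less RNA per cell cannot be told apart. In 3 of the 4, all but male fentanyl 4, the striatal projection score was also high, from 5.31 to 6.52, and all 4 had reticular thalamic scores from 5.90 to 6.32, above those of the other 16.

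**Figure D2:**
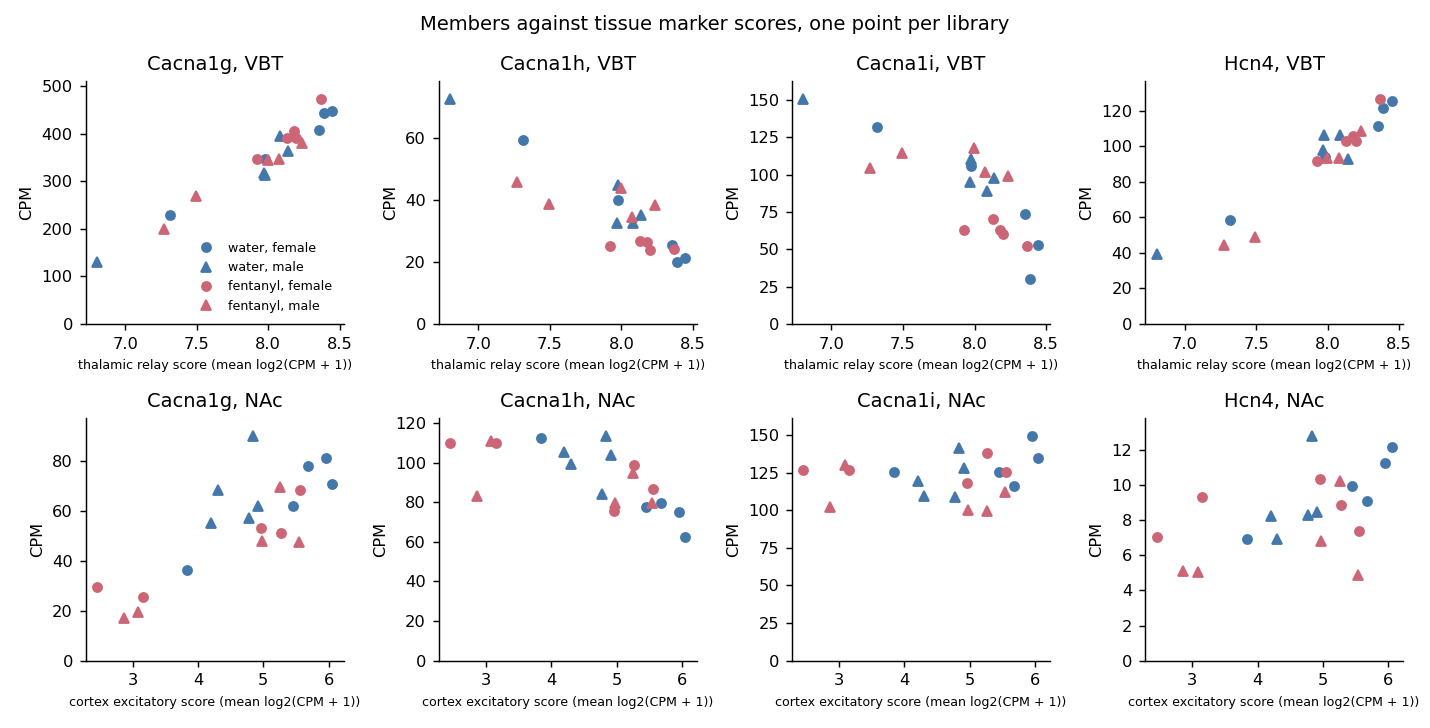
CPM of 4 members (vertical axes) against the thalamic relay score in VBT (upper row) and the cortex excitatory score in NAc (lower row), 1 point per library, with 20 libraries a row. Blue is water, red fentanyl, circles are female and triangles male. Cacna1g and Hcn4 are lowest in the 4 VBT libraries scoring under 7.5, and the 4 NAc libraries with the lowest cortex scores are all from the fentanyl groups.

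Fentanyl was compared with water within each region and sex. Members passed an adjusted p of 0.05 in VTA only, in males and in the average of both sexes. In VTA males 3 of 6 members fell, Cacna1g, Cacna1h and Hcn3, and none rose. That contrast called 22.0% of the 19822 genes tested, including 11% called lower. The members' median log2 fold change was -0.30, against 0.00 over all genes.

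**Figure D3:**
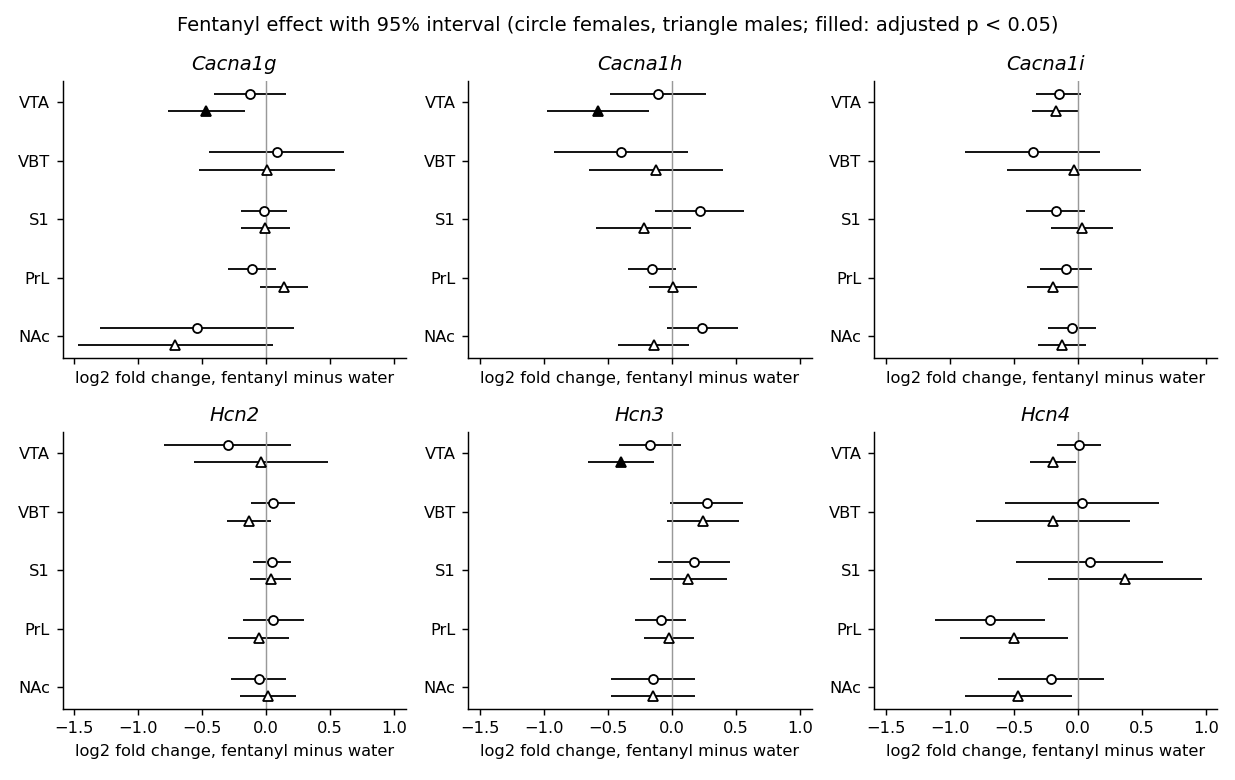
Log2 fold change, fentanyl minus water (horizontal axes), of each member in each region, with its 95% interval. Circles are females, triangles are males, and a filled symbol marks an adjusted p under 0.05. The filled symbols are Cacna1g, Cacna1h and Hcn3 in VTA males.

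Cacna1g in VTA males read 137, 125, 159 and 165 CPM in the 4 water libraries and 73.3, 128, 117, 78.5 and 121 in the 5 fentanyl libraries. The groups overlapped by 1 library each, and fentanyl 1 and 4 were far below the rest. The log2 fold change was -0.47 (SE 0.14, 95% interval -0.77 to -0.17, adjusted p 0.0253 by edgeR's quasi-likelihood test).

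Cacna1h in VTA males read 75.1, 63.4, 84.0 and 88.7 CPM with water and 27.6, 63.6, 62.1, 47.9 and 53.7 with fentanyl. Of the fentanyl libraries only number 2 exceeded the lowest water value, and fentanyl 1 was again the lowest. The log2 fold change was -0.58 (SE 0.19, interval -0.97 to -0.18, adjusted p 0.0363 by edgeR).

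Hcn3 in VTA males read 63.7, 60.5, 54.9 and 58.0 CPM with water and 45.0, 56.9, 44.3, 30.8 and 42.9 with fentanyl. Fentanyl 2 lay within the water range and the other 4 below it. The log2 fold change was -0.40 (SE 0.12, interval -0.66 to -0.14, adjusted p 0.0265 by edgeR).

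The other members were not called in VTA males. Cacna1i read 84.6 to 101 CPM with water and 73.7 to 84.1 with fentanyl, so that its groups did not overlap, as was so for 22.4% of the genes tested. Its log2 fold change of -0.17 had an adjusted p of 0.176 by edgeR. Hcn4 went from a mean of 28.9 ± 2.74 (SD, n = 4) to 24.6 ± 2.19 (SD, n = 5), with a log2 fold change of -0.19 (adjusted p 0.115 by edgeR). Hcn2 was at -0.04, with an interval from -0.56 to 0.49.

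**Figure D4:**
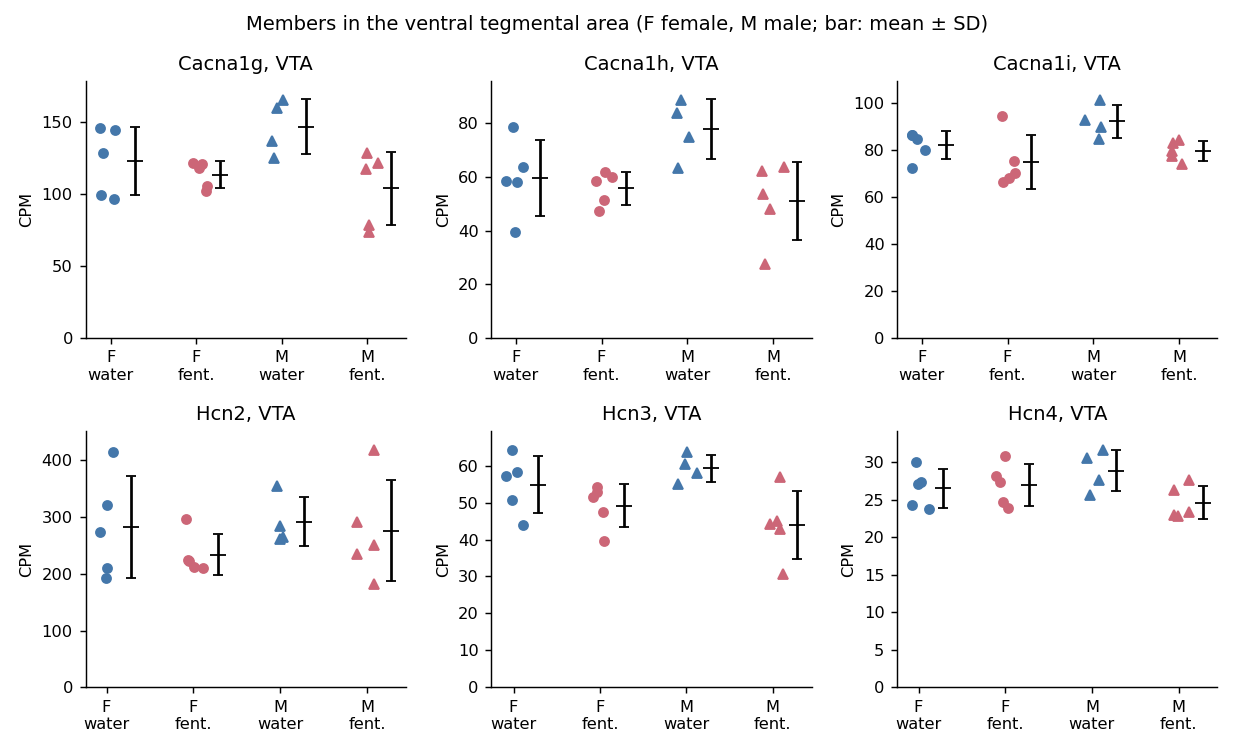
CPM of the 6 members (vertical axes) in the 4 VTA groups, with female groups of 5 libraries and male groups of 4 (water) and 5 (fentanyl). Points are libraries (blue water, red fentanyl) and bars are the mean ± SD. Male fentanyl lies below male water for Cacna1g, Cacna1h and Hcn3, with 1 or more fentanyl libraries inside the water range.

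In VTA females no member was called, where 0% of genes were called and 12.7% (2518 genes) had an unadjusted p under 0.05. All 6 members had an unadjusted p above 0.05. Cacna1g was at -0.13 (interval -0.41 to 0.16), Cacna1h at -0.11 (interval -0.48 to 0.27) and Hcn3 at -0.17 (interval -0.42 to 0.07). The effect in males minus that in females was tested directly and was not called for any member. It was -0.34 for Cacna1g (interval -0.75 to 0.07), -0.47 for Cacna1h (interval -1.01 to 0.08) and -0.23 for Hcn3 (interval -0.58 to 0.13). Averaged over the sexes, where 23.1% of genes were called, Cacna1g fell by 0.30 (adjusted p 0.0353) and Hcn3 fell by 0.29 (adjusted p 0.0208), both by edgeR, and Cacna1h and Cacna1i were just outside at -0.34 (adjusted p 0.0658) and -0.16 (adjusted p 0.0636).

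Properties of the libraries moved with these values. Spearman's rho between a gene's count, relative to the mean of the region's libraries, and its GC content was from 0.54 to 0.66 in the VTA male water libraries and from -0.50 to -0.11 in the male fentanyl libraries. In VTA females it was from -0.33 to 0.67 with water and from -0.57 to 0.03 with fentanyl, so that only the male groups did not overlap. With offsets that remove this trend, 0 members were called in VTA males and 3.11% of genes were. The log2 fold changes became -0.18 for Cacna1g, -0.23 for Cacna1h and -0.10 for Hcn3, and Hcn4, Cacna1i and Hcn2 turned to 0.10, 0.18 and 0.44. The calls in the average were lost too, where Cacna1g was at -0.10 (adjusted p 0.647) and Hcn3 at -0.08 (adjusted p 0.685), with 3.92% of genes called. The same rho for exon length was from -0.23 to -0.15 in the male water and from -0.03 to 0.20 in the male fentanyl libraries, so that these groups did not overlap either. With offsets for exon length all 3 members were called in males, at -0.53 for Cacna1g, -0.63 for Cacna1h and -0.38 for Hcn3, as were 21.2% of genes. The 6 midbrain dopamine markers, Th, Slc6a3, Slc18a2, En1, Pitx3 and Foxa2, were all lower in male fentanyl libraries (median -0.71 on the log2 scale), though none of the 6 was called. Their summed level was 335 to 1240 CPM there and 864 to 1499 CPM with water, with none of them at 0. With the dopamine score as a covariate, which called 9.04% of genes, 0 members were called and Cacna1g, Cacna1h and Hcn3 were at -0.29, -0.30 and -0.27. In the average that fit called 13.6% of genes and, of the members, Cacna1i (-0.22, adjusted p 0.0198), but not Cacna1g (-0.18, adjusted p 0.121) or Hcn3 (-0.20, adjusted p 0.0935). Without the libraries scoring under 5 (male fentanyl 1 and 4, female water 1 and female fentanyl 3), Cacna1h and Hcn3 were called at -0.37 and -0.30, as were 15.0% of genes, while Cacna1g was at -0.26 (adjusted p 0.103 by edgeR). The percent of reads outside exons was 10.5% to 11.8% in the male fentanyl and 11.6% to 12.4% in the male water libraries, with overlap. With it as a covariate 1 member was called in males and 1 in the average. The part of the GC trend, of reads outside exons and of tissue content in the fentanyl result was otherwise not tested.

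Leaving out 1 library in turn ended some of these calls. In males Cacna1g was called in 15 of 19 such fits, not without male fentanyl 1 or 4 or male water 4 or 5 (highest adjusted p 0.0796). Cacna1h was called in 13, not without male fentanyl 1, 4 or 5 or male water 1, 4 or 5 (highest 0.101), and Hcn3 in 16, not without male fentanyl 5 or male water 1 or 2 (highest 0.0782). In the average Hcn3 was called in all 19, and Cacna1g in 11, not without male fentanyl 1, male water 4 or 5, female fentanyl 1 or 3, or female water 2, 3 or 4 (highest 0.0768).

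In PrL the member that stood lowest against water was Hcn4. In females Hcn4 read 10.5, 12.6, 12.8, 13.4 and 15.5 CPM with water and 5.82, 8.97, 8.16, 8.23 and 8.20 with fentanyl. The female groups did not overlap, which was so for 2.18% of the 19074 genes tested. The log2 fold change in females was -0.68 (SE 0.20, interval -1.11 to -0.26), with an unadjusted p of 0.00325 and an adjusted p of 0.309 by edgeR, so it was not called, as 0.0210% of genes were.

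In PrL males Hcn4 read 10.3, 13.4, 23.5, 11.4 and 7.83 CPM with water and 8.93, 7.03, 9.54, 11.2 and 9.26 with fentanyl. The groups overlapped, and water 3 was far above the other 9. The log2 fold change was -0.50 (interval -0.92 to -0.08, adjusted p 0.370 by edgeR). The average over the sexes was -0.59 (SE 0.14, interval -0.89 to -0.29, adjusted p 0.0587), with 0.697% of genes called, and males minus females was 0.19 (interval -0.41 to 0.78).

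Water 3 of the males and water 5 of the females had olfactory bulb scores of 5.66 and 4.83, and male water 4 of 2.64, against at most 1.22 in the other 17 PrL libraries. Of 4 olfactory bulb markers 3 could be tested, and all 3 were lower with fentanyl, with none called. The summed level of all 4 markers was 4.17 to 8.63 CPM over the fentanyl libraries and 4.71 to 324 CPM over the water libraries. Without those 3 water libraries Hcn4 was at -0.41 in the average (adjusted p 0.127), at -0.62 in females (adjusted p 0.242) and at -0.20 in males (adjusted p 0.736). Leaving out male water 3 alone put males at -0.22 (adjusted p 0.756). The percent of reads outside exons also differed in PrL, at 9.48% to 11.2% in female fentanyl and 11.5% to 13.3% in female water libraries, and with it as a covariate Hcn4 was at -0.19 in the average (adjusted p 0.921). DESeq2's Wald test called Hcn4 in the average (adjusted p 0.00472), as did edgeR without female water 1 (-0.63, adjusted p 0.0431) or without male water 5 (-0.66, adjusted p 0.0233). The part of bulb tissue and of reads outside exons in the Hcn4 values was otherwise not tested. The other 5 PrL members were between -0.14 and 0.02 in the average, none with an unadjusted p under 0.05.

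**Figure D5:**
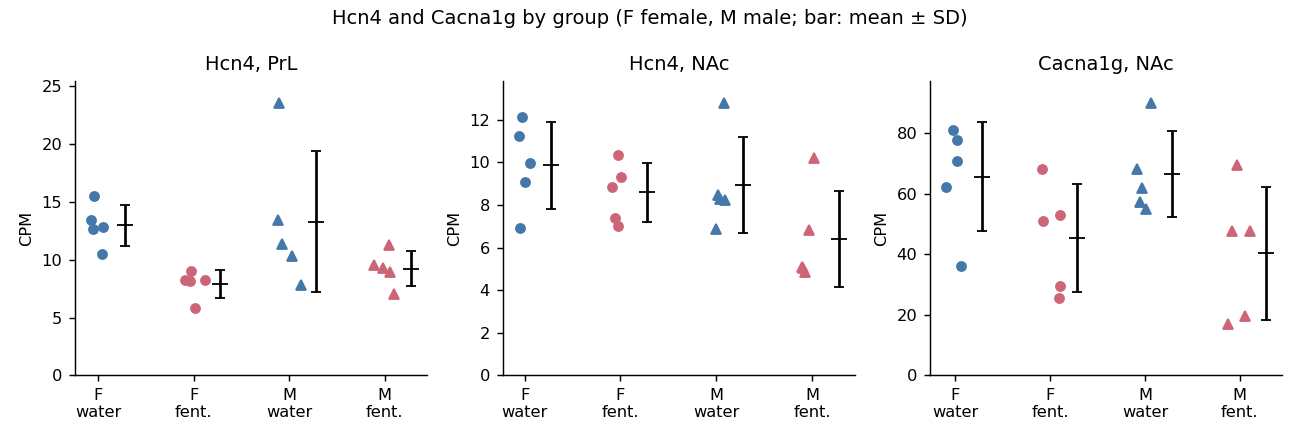
CPM (vertical axes) of Hcn4 in PrL and in NAc and of Cacna1g in NAc, by sex and treatment, with 5 libraries a group and bars at the mean ± SD. In PrL females all 5 fentanyl libraries, 5.82 to 8.97 CPM, are below all 5 water libraries, and the highest PrL point, 23.5 CPM, is male water 3.

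In NAc no member was called in any fentanyl contrast. Cacna1g had the largest difference, at 66.4 ± 14.1 CPM with water and 40.3 ± 22.0 with fentanyl in males (SD, n = 5 each), and 65.5 ± 18.0 and 45.4 ± 17.8 in females. Its average log2 fold change was -0.62 (interval -1.16 to -0.09, unadjusted p 0.0252, adjusted p 0.352 by edgeR), and 0% of genes were called in that contrast. The 4 NAc libraries with the lowest cortex scores, 2.45 to 3.15, were female fentanyl 1 and 2 and male fentanyl 2 and 4, and they read Cacna1g at 17.1 to 29.4 CPM, below the other 16 libraries at 36.2 to 89.9. All 5 cortex markers were lower in females and 2 of 5 in males, none called, and their summed level over the fentanyl libraries was 53.7 to 821 CPM against 247 to 1373 CPM with water. With the cortex score as a covariate Cacna1g was at -0.36 in the average (adjusted p 0.415) and at -0.73 in males (adjusted p 0.0239, with 3.28% of genes called), and at 0.0061 in females. Without those 4 libraries Cacna1g was at -0.23 in the average (adjusted p 0.908), at -0.26 in males (adjusted p 0.698) and at -0.20 in females (unadjusted p 0.418), with 0% of genes called in the average and in males.

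Hcn4 in NAc males read 6.89, 12.8, 8.30, 8.47 and 8.24 CPM with water and 4.86, 5.08, 6.81, 5.06 and 10.2 with fentanyl. Of the fentanyl libraries 4 lay below every water library and number 5 above all but 1 of them. The log2 fold change was -0.47 (interval -0.88 to -0.05, adjusted p 0.225 by edgeR), where 0.662% of genes were called. Without male fentanyl 5 it was -0.66 (adjusted p 0.0487), without male water 2, the highest water value, -0.29 (adjusted p 0.517), and without the 4 libraries of low cortex score -0.29 (adjusted p 0.639). In the average Hcn4 was at -0.34 (adjusted p 0.357), and males minus females at -0.26 (interval -0.85 to 0.33). Cacna1h in NAc water libraries was 0.28 higher in males than in females (unadjusted p 0.0464, adjusted p 0.460 by edgeR).

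In VBT 0% of genes were called in each fentanyl contrast, with unadjusted p-values under 0.05 for 7.86% in females, 8.70% in males and 8.49% in the average. Hcn3 was the only member with an unadjusted p under 0.05, at 0.26 in the average (interval 0.06 to 0.46, adjusted p 0.507 by edgeR). In females Hcn3 read 9.77, 10.6, 8.12, 10.5 and 10.6 CPM with water and 11.5, 13.4, 11.7, 11.7 and 11.96 with fentanyl. The female groups did not overlap, as was so for 2.06% of the 18923 genes tested. In males Hcn3 read 13.4, 11.4, 13.7, 11.5 and 12.8 CPM with water and 10.8, 13.6, 12.6, 23.4 and 15.2 with fentanyl, and the groups overlapped. The 2 highest male fentanyl values belonged to 2 of the 4 libraries with low relay scores, and without those 4 the average was 0.15, and 0.16 without male fentanyl 4 alone. In water Hcn3 was 0.33 higher in males than in females (adjusted p 0.573). Cacna1g was at 0.04 in the average (interval -0.33 to 0.42) and Hcn4 at -0.08 (interval -0.50 to 0.35).

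In S1 no member had an unadjusted p under 0.05 in a fentanyl contrast, where 0.142% of genes were called in females, 0% in males and 1.03% in the average of the sexes. Unadjusted p-values under 0.05 were held there by 13.9%, 7.15% and 15.8% of genes. The intervals were narrow for Cacna1g, whose average was -0.01 (interval -0.15 to 0.12), and for Hcn2, at 0.04 (interval -0.07 to 0.15). They were wide for Hcn4, at 0.23 (interval -0.19 to 0.64). Over the 5 regions, males minus females was tested for the 6 members, and none of the 30 tests had an unadjusted p under 0.05, where 15.2% of genes in NAc, 11.4% in VTA, 8.03% in VBT, 4.14% in S1 and 2.59% in PrL did. Between the sexes in water no member was called, as 0.0898% of genes in VBT, 0.0557% in S1, 0.0513% in NAc, 0.0504% in VTA and 0.0472% in PrL were.

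A list of 28 further channel and associated genes, Pex5l, Klhl1, Cachd1 and Usp5 among them, was counted as a whole. Most are the other calcium channel pores (Cacna1) and their beta (Cacnb), alpha2delta (Cacna2d) and gamma (Cacng) subunits. Of the 24 tested in VTA males, 4 fell and 3 rose, against 22.0% of all genes called. Those that fell were Cacna1a, the P/Q-type pore (-0.35, adjusted p 0.00296), the beta subunit genes Cacnb1 (-0.40, adjusted p 0.00404) and Cacnb3 (-0.44, adjusted p 0.0258), and the alpha2delta gene Cacna2d2 (-0.32, adjusted p 0.0048). Cacnb4, another beta subunit gene, rose by 0.43 (adjusted p 0.0107). Cacnb4 averaged 129 ± 4.95 CPM with water (SD, n = 4) and 170.0 ± 13.5 with fentanyl (SD, n = 5), without overlap. Groups did not overlap for 7 of the 24, against 22.4% of all genes. In the average over sexes 6 fell and 3 rose, against 23.1% of all genes called, with Cacnb2 up by 0.17 (adjusted p 0.0121). The median of the 24 was -0.11 in males, against 0.00 over all genes. With offsets for GC content, which called 3.11% of all genes in males and 3.92% in the average, none of the 5 named genes was called in males: Cacna1a was at -0.09, Cacnb1 at -0.07, Cacnb3 at -0.11, Cacna2d2 at -0.12 and Cacnb4 at 0.18 (adjusted p from 0.197 to 0.703). In the average Cacnb2 was then at 0.07 (adjusted p 0.297), while Cacna1a was called at -0.11 (adjusted p 0.0436). With the dopamine score as a covariate Cacnb3 (-0.27, adjusted p 0.132) and Cacnb4 (0.31, adjusted p 0.0645) were not called in males, and without the libraries of low score Cacnb3 was not (-0.24, adjusted p 0.0716).

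Elsewhere the list gave few calls at an adjusted p of 0.05. In PrL Cacna1d, an L-type pore gene, fell by 0.30 in the average (adjusted p 0.0266 by edgeR), the 1 gene of 24 called, against 0.697% of all genes. Cacna1d, with the share of reads falling outside exons in the fit, was at -0.07 (adjusted p 0.927), and with the bulb score at -0.20 (adjusted p 0.0693). Cachd1, a relative of the alpha2delta genes, was at -0.35 there (adjusted p 0.0588). In NAc males Cacna1b, the N-type pore, fell by 0.31 (adjusted p 0.0444), from 155 ± 8.30 to 122 ± 8.47 CPM (SD, n = 5 each), the 1 gene of 24 called, against 0.662% of all genes. Without the 4 NAc libraries of low cortex score Cacna1b was at -0.29 (adjusted p 0.209). In VBT and S1, in females of all 5 regions, and in the difference between the sexes, none of the list was called by edgeR. Unadjusted p-values under 0.05 were held by 2, 3 and 1 of the 23 genes tested in VBT females, males and average, against 7.86%, 8.70% and 8.49% of all genes, and by 1, 2 and 3 of 24 in S1, against 13.9%, 7.15% and 15.8%. In PrL they were held by 6, 5 and 8 of 24 in females, males and average, against 9.53%, 12% and 19.1%, with 6 of the 8 lower, and in NAc by 7, 8 and 10 of 24, against 9.03%, 17.6% and 12%, with 6 of the 10 lower. In VBT Klhl1, an actin-binding protein gene, was at 1.14 in females (unadjusted p 0.0119) and -1.21 in males (unadjusted p 0.00946), and the male minus female difference of -2.34 had an adjusted p of 0.231. Its level was low, at a mean of 2.39 CPM in the VBT water libraries (0.83 to 4.87), with a lowest count of 29.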

How the data were processed

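RNA-seq counts of 99 libraries were used. The authors deposited raw read counts per Ensembl gene, with GRCm38 and HTSeq named in the submitters' processing notes; the aligner, annotation release and strand setting are not given in the sources used here. The labels name SMART-Seq v4 as the library chemistry, with an input of 10 ng. The 5 lines that name no gene were left out. Symbols, positions and GC content came from GENCODE M21, which held 55154 of the 55335 identifiers. CPM was scaled to each library's total, between 23032078 and 52069639 in the 98 libraries used and 16515545 in VTA male water 3. A count of 0 allows up to 3 counts, counting error only.

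Each region was fitted over its 4 groups with edgeR 4.0.16 (R 4.3.3; quasi-likelihood F-test, TMM, filterByExpr, robust), and regions were compared over 48 water libraries. Genes with a Benjamini-Hochberg adjusted p under 0.05, over all genes tested in a contrast, are called. Intervals and standard errors came from the F statistic. DESeq2 1.42.0, other filters, offsets, covariates and left-out libraries were alternatives. The fits were also tested on simulated data. Those data held no GC or length trend and no mixing of tissues, so that test does not bear on these.

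The members and lists were chosen with earlier results of these data known. The 6 members are always named. The wider list is counted whole, and at most 5 of its genes per contrast, by smallest p among those called or with an unadjusted p under 0.05, could be named. Of the genes this rule names, 1 is not reported here, and it is counted in the list.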

Additional observations from a re-analysis of the deposited data

Results flagged for a closer look

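A single library stood far from the others of its group in 8 of 120 checks of a member in a group, and chance alone flags about 6. Hcn4 in VBT male water 3 read 39.5 CPM against 92.7 to 106 in the other 4, and this library had the lowest thalamic relay score. Hcn4 in PrL female fentanyl 1 read 5.82 CPM against 8.16 to 8.97, and in NAc male water 2 it read 12.8 CPM against 6.89 to 8.47. Hcn2 in VTA female fentanyl 5 read 297 CPM against 211 to 225, and in PrL male fentanyl 2 it read 103 CPM against 78.2 to 84.9. Hcn3 in VBT female fentanyl 2 read 13.4 CPM against 11.5 to 11.96, and in NAc male water 1 it read 17.6 CPM against 22.7 to 24.0. Cacna1g in PrL male water 4 read 145 CPM against 119 to 126, and this library also had a raised olfactory bulb score.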

How the results depend on the processing

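The count of 3 members called in VTA males was 1 without a filter on low counts and 1 with a covariate for the percent of reads outside exons. It was 0 with offsets for GC content, 0 with those offsets and the replicate block, 0 with VTA male water 3 kept and 0 with the dopamine score as a covariate, and 1 to 3 with a library left out. The 2 called in the VTA average became 1, 1, 0, 0, 0 and 1 in that order, 4 with offsets for exon length, 4 without the libraries of low dopamine score and 1 to 3 with a library left out. In the PrL average, with 0 called, DESeq2 called 1 member, and in NAc males, also with 0, the cortex score gave 1; leaving out a library gave 0 to 1 in both. With VTA male water 3 kept, 2 members were called between VTA and PrL, 2 between S1 and PrL and 1 between PrL and NAc, and 35 of 60 pairs passed in all. The covariates for marker scores and the fits without low-score libraries were chosen after seeing the data. The cause of these shifts was not tested.

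Among results with an unadjusted p under 0.05, signs reversed in 14 cases. In VTA males Hcn4 was at 0.10 with GC offsets, 0.084 with GC offsets and the block, and 0.13 with male water 3 kept. Cacna1i in the VTA average was at 0.085 and 0.072 under the first 2. With male water 3 kept, the sex difference of the fentanyl effect in VTA was 0.023 for Cacna2d2 and 0.00030 for Cacnb1, and Cacnb1 in water was at -0.088. In PrL Cacna1c in females was at 0.00505 with the percent outside exons. Cacng5 in PrL was at 0.26 in males and 0.25 in the average with the bulb score, at 0.16 and 0.19 without the libraries of high bulb score, and at 0.52 in the average with the percent outside exons. Over all 18 member results of a region (6 members in females, males and the average), whatever their p, GC offsets turned the sign of 7 in VTA, leaving out the low relay libraries 7 in VBT and the cortex score 6 in NAc, and each other setting apart from left-out single libraries and GC offsets with the block in VTA (7) turned 0 to 5 in a region.

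Of 48 pairs of same-numbered fentanyl and water libraries, 16 had a correlation over 0.1, with a range from -0.44 to 0.48. In 12 pairs the fentanyl library matched its own number best, and in VTA females in 4 of 5. No correlations of different numbers are given beside these, so they cannot decide whether such libraries were paired. Same-numbered libraries of different regions did correlate in part, most in S1 with PrL (13 of 19 over 0.1, median 0.16 against -0.05 for different numbers) and S1 with NAc (11 of 19, median 0.13 against -0.03). The labels do not say whether these came from 1 animal, and the region tests treat them as separate. With sex and number as a replicate block 50 of 60 region pairs passed and 0 calls changed. With the replicate block 3 members were called in VTA males and 3, in place of 2, in the average, and 3855 genes were called in VTA males against 4355. Counts of Hcn4 in S1 were the lowest of the members, but its SE in the average, 0.199, was close to that in VBT, 0.202, where counts were higher.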
